A study of Mus musculus with 281 samples.

Results

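The genes described here encode collagen chains. They were chosen by symbol, as every gene in the table whose name is Col, a number, a and a second number, which gave 44 of 47752 genes. The cells came from the stria vascularis, the tissue of the cochlear lateral wall that secretes potassium into the endolymph. Single cells were prepared by the Smart-Seq2 protocol, which amplifies full-length polyadenylated RNA, and each library was 1 cell. There were 69 cells from Slc26a4-/- mice aged 24 to 44 days after birth and 40 from Slc26a4+/- mice aged 26 to 33 days, and the rest came from Slc26a4+/+ mice aged 22 to 42 days. All mice were male and of the 129S6 background. Slc26a4 encodes pendrin, an anion exchanger, and the genotype is that of the animal and not of a cell type. Cells were freed with collagenase, an enzyme that cuts collagen protein, and picked one at a time by hand with a glass micropipette, so numbers of cells per type are not shares of the tissue. No label ties a cell to a mouse, so the cells of a genotype were treated as 1 sample, no test between genotypes or cell types was made, and every difference below is a description.

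Estimated counts per cell ranged from 1848 to 7932729 with a median of 1312950, and 20 cells, all Slc26a4+/+, held fewer than 100000. The deposited names carry 4 run dates. All Slc26a4+/- cells were from run date 4, and the Slc26a4-/- cells were from run dates 1 (1 cell), 2 (46 cells) and 4 (22 cells). Clustering without the collagen genes gave cells with the markers of intermediate cells (IMC-like, 60 Slc26a4+/+, 23 Slc26a4+/- and 35 Slc26a4-/- cells), which are pigmented cells of melanocyte lineage, of spindle cells (SC-like, 34 cells) and root cells (RC-like, 35 cells), both known to make pendrin in wild-type mice, and of marginal cells (MC-like, 21 cells), the epithelium that faces the endolymph. A further 17 cells carried Vmo1, Otx2, Crhbp and Slc26a7, the markers set for Reissner membrane, which is not part of the stria (RM-like). The last cluster, of 56 cells, was left unnamed. Erythroid and neutrophil genes led it by fold, but Galntl6, Gdap1 and Gm14667 led it by mean log level. Its most frequent best marker score was that of intermediate cells, in 41.1% of its cells. Its median depth was 335354 counts, and 34 of its cells were from run date 1, with a median of 105948. Slc26a4 RNA was at a mean of 969 CPM (a gene's share of the counts of its cell, scaled to the same total in each cell) in the 39 Slc26a4+/+ SC-like and RC-like cells, 554 CPM in the 8 Slc26a4+/- cells and 793 CPM in the 22 Slc26a4-/- cells. The groups overlapped, so the RNA of the targeted gene did not separate the genotypes, which were taken from the labels.

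Collagens are secreted proteins of the extracellular matrix whose chains wind around each other as trimers, with each chain encoded by its own gene. Fibrillar collagens form cable-like fibrils, FACIT collagens sit on the surface of fibrils, basement membrane and network collagens form sheets and lattices, multiplexins are attached to basement membranes, and transmembrane collagens stay in the cell membrane. In the cochlea, collagens of types II, IX and XI are known from the tectorial membrane and the spiral ligament, and chains of type IV from basement membranes. Variants in several of these genes cause deafness in humans.

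In the Slc26a4+/+ cells of the named types, 24 of the 44 genes (54.5%) had a mean of 10 CPM or more in at least 1 cell type, against 24.8% of all genes in the table. The collagens were few per cell and differed in kind between cell types. Col5a3 and Col16a1 were the leading collagens of IMC-like cells, Col9a3, Col9a1, Col11a2 and Col18a1 those of RC-like cells, Col18a1, Col9a3 and Col4a5 those of MC-like cells, and Col8a1 and Col9a3 those of RM-like cells. SC-like cells had no collagen above 60 CPM. The sequences upstream of 4 genes that lead these lists or whose transcripts start at more than 1 place are given first, because the start used is part of the result for Col9a1 and Col18a1. Each line is the 250 bases before a RefSeq transcription start on the gene's own strand in GRCm38.p6, written 5′ to 3′, with matches to the GC box GGGCGG on either strand in capitals. Col5a3 is at chr9:20815068-20815317 (minus strand), Col8a1 at chr16:57754738-57754987 (minus), Col18a1 at chr10:77166531-77166780 (minus) and Col9a1 at chr1:24177360-24177609 and chr1:24194953-24195202 (plus).
Col5a3: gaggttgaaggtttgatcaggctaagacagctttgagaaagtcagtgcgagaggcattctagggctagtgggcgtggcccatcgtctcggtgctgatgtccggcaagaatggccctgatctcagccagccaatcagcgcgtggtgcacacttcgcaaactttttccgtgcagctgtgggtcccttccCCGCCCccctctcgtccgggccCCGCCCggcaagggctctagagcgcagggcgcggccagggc
Col8a1: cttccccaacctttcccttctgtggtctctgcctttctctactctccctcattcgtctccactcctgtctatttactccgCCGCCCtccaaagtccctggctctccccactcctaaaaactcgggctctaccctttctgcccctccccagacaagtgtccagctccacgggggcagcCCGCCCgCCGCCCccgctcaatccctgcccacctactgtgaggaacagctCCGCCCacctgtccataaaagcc
Col18a1: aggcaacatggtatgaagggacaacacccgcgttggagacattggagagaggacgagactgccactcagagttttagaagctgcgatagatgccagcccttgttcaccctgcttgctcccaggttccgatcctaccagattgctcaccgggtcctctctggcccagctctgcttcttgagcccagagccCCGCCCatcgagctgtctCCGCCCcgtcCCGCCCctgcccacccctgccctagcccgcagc
Col9a1, upstream start: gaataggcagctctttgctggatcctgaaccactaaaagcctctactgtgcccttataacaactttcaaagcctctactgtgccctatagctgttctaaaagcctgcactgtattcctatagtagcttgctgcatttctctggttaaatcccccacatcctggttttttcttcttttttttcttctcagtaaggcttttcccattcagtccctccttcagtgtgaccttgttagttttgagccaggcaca
Col9a1, downstream start: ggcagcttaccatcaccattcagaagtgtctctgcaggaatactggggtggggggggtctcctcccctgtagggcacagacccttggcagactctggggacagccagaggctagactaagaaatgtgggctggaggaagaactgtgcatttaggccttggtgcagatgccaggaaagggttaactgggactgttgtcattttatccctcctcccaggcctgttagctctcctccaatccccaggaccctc

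The second Col9a1 window lies inside an intron of the longer Col9a1 transcript, and its last 16 bases are in the first exon of the shorter one. The last 18 bases of the Col18a1 window are likewise in the first exon of its transcript of 5063 bases. Matches to GGGCGG began 63 and 41 bases before the start of Col5a3 and 170, 73, 66 and 23 bases before that of Col8a1. In the Col18a1 window printed above they began 61, 43 and 33 bases before the start. Neither Col9a1 window held a match, nor did a second Col18a1 window, not printed here, before the start at 77113705. Promoter windows were found for 35 of the 44 genes (38 windows of 300 bases, which run 50 bases past the start). Only the 250 bases before the start were searched in each. GGGCGG was there in 57.9% of these windows and in 32.7% of all 32851 windows searched in the same way. The other letters searched, on both strands, were ACAAAG (10.5% of collagen windows, 16.5% of all), ACAATG (2.63% and 10.7%), CATGTG (7.89% and 12.3%), CACGTG (0 and 6.02%), TAATCC (0 and 6.25%) and TATAAA (13.2% and 12.4%). These are matches of letters, not sites of binding.

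**Figure D1:**
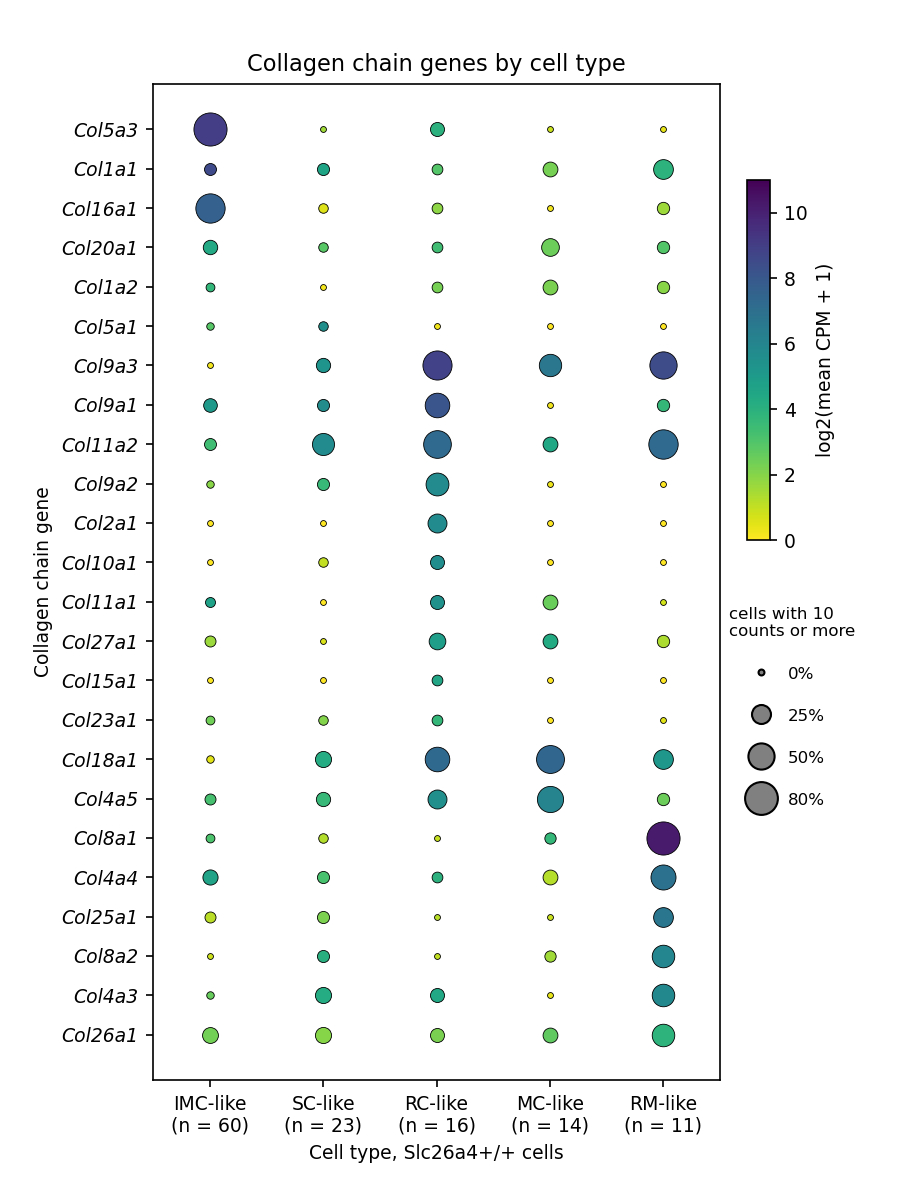
Mean level in Slc26a4+/+ cells of the 24 collagen genes that reached 10 CPM in a named cell type, by cell type. The area of each point gives the share of cells with 10 counts or more and its colour log2(mean CPM + 1), and a reader sees Col5a3 and Col16a1 in the IMC-like column, the type IX chains in the RC-like column and Col8a1 in the RM-like column.

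The number of collagen genes at 10 CPM or more was 8 in IMC-like cells (18.2% of the 44, against 18.6% of all genes), 10 in SC-like cells (22.7% against 18.8%), 15 in RC-like cells (34.1% against 18.3%), 6 in MC-like cells (13.6% against 16.3%) and 11 in RM-like cells (25% against 17.8%). Of the 24, 12 had a mean at least 4-fold above the next named type on log2(CPM + 1), which 13.3% of all genes at 10 CPM also had. Of these, 5 were highest in RC-like cells (Col2a1, Col9a1, Col9a2, Col10a1 and Col15a1; background 3.56%), 3 in IMC-like cells (Col1a1, Col5a3 and Col16a1; 3.23%), 3 in RM-like cells (Col8a1, Col4a4 and Col25a1; 3.14%), 1 in SC-like cells (Col5a1; 1.89%) and 0 in MC-like cells (1.53%). Without the highest cell of each gene the means of Col1a1, Col10a1 and Col15a1 dropped below 10 CPM, to 4.95, 0.367 and 0 CPM, so these calls rest on 1 cell each. Col5a1 in SC-like cells had 10 counts or more in 1 of 23 cells.

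Of the fibrillar genes, 8 of 11 reached 10 CPM in a named type, and Col5a3 was the most widely detected of all collagens in IMC-like cells. Col5a3 encodes a chain of type V collagen, which regulates the width of fibrils. Its level in the 60 Slc26a4+/+ IMC-like cells ran from 0 through a median of 359.9 to 3138 CPM with a mean of 509.8, and 49 cells had 10 counts or more (81.7%, exact Clopper-Pearson 95% interval 69.6% to 90.5%; such intervals cover counting error only). In the next type, RC-like, the mean was 14.9 CPM (2 of 16 cells with 10 counts), and SC-like, MC-like and RM-like cells had 2.00, 0.816 and 0.347 CPM with no cell at 10 counts. The order did not rest on 1 run, since the means of the 4 run dates were 483, 339, 575 and 510.3 CPM, and 18 of the 20 collections (cells that share run date, collection number and age) had a mean of 10 CPM or more. The difference from RC-like cells was 5.01 on the log2 scale. The partner chains of type V were not there with it: Col5a1 had 10 counts in 1 of the 60 cells and a mean of 6.53 CPM, and Col5a2 a mean of 3.08 CPM.

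Over all cells the genes whose log2(CPM + 1) was most like that of Col5a3 included Tyr (Pearson's r 0.75), Gpnmb (0.74), Hpse (0.73) and Nrp2 (0.73). Tyr is the tyrosinase of melanin synthesis and Gpnmb a melanosome glycoprotein. The cells share libraries and depths with these genes, so the values are descriptions. Col5a3 was also at a mean of 303.9 CPM in the 48 unnamed Slc26a4+/+ cells, 13 of which had 10 counts, and the markers of intermediate cells summed to a mean of 28573 CPM there.

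Col16a1, a FACIT chain of its own homotrimer, was the other collagen of IMC-like cells. It ran from 0 through a median of 68.9 to 1091 CPM with a mean of 198.3 CPM, and 38 of 60 cells had 10 counts or more (63.3%, interval 49.9% to 75.4%). Its means in RC-like, RM-like, SC-like and MC-like cells were 2.61, 2.06, 0.477 and 0.145 CPM, a log2 difference of 5.79 between IMC-like and RC-like cells, and 16 of 20 collections reached 10 CPM. The run dates differed more than for Col5a3, at 107.8, 36.3, 287.2 and 134.99 CPM, although each was above every other cell type's mean. Of the IMC-like cells of all genotypes, 98 had Col5a3 and 70 had Col16a1 at 10 counts, 62 had both and 12 neither. Their r was 0.57 over all cells and 0.23 within IMC-like cells, so most of the likeness was that between cell types. TPM corrects for transcript length and allows genes to be compared. Summed over transcripts, Col16a1 (137.5 TPM) and Col5a3 (136.7 TPM) were level and held 31.5% and 31.3% of the summed collagen TPM of IMC-like cells. Their highest single transcripts were not level, at 48.5 TPM for Col16a1 and 93.4 TPM for Col5a3. Col16a1 transcripts of 452 and 445 bases, with 1.63% and 1.62% of its counts, held 17.8% and 18.6% of its TPM.

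**Figure D2:**
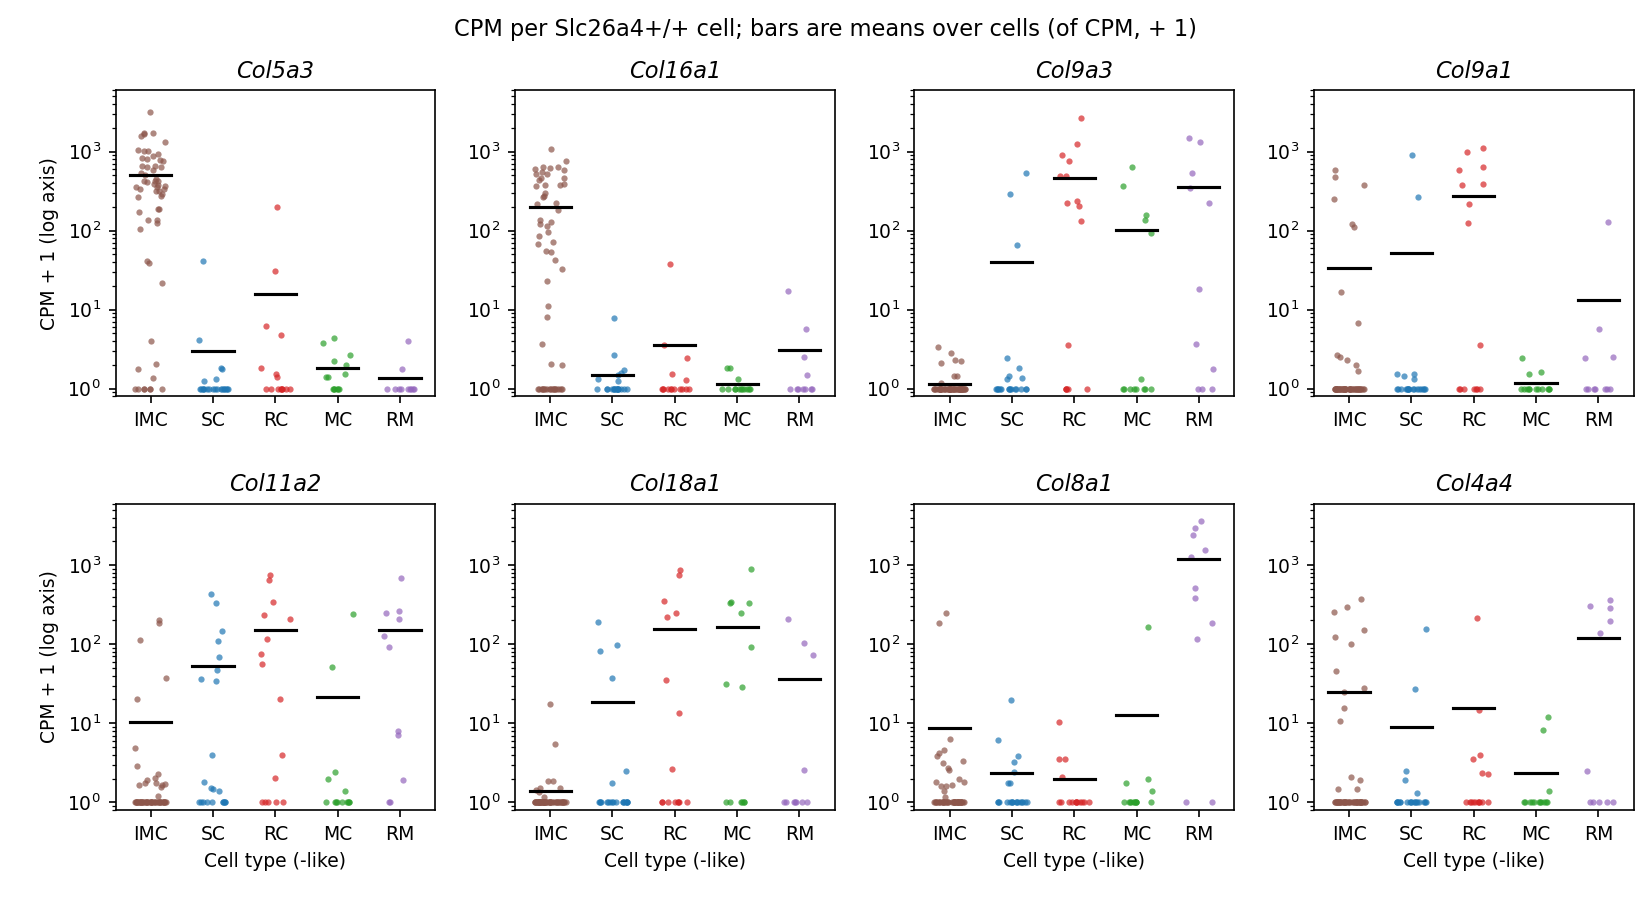
CPM plus 1 on a log axis of 8 collagen genes in each Slc26a4+/+ cell, by cell type, with 1 point per cell. The genes are Col5a3, Col16a1, Col9a3, Col9a1, Col11a2, Col18a1, Col8a1 and Col4a4, and bars are means over cells. Col5a3 reaches 3138 CPM (IMC-like) and Col8a1 3654 CPM (RM-like), while most cells of the other types are at or near 0.

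Col1a1 and Col1a2, the chains of type I collagen, showed a different pattern. In IMC-like cells Col1a1 averaged 373 CPM with a median of 0.904 CPM, and 5 of 60 cells had 10 counts. A single cell of run date 2 at 32 days held 22087.5 CPM of Col1a1 and 695 CPM of Col1a2, and the mean without it was 4.95 CPM. The same cell held 2163 CPM of Bglap and 999.6 CPM of Dmp1, which mark osteoblasts and osteocytes, while Ibsp, Sp7 and Runx2 were at 0, and Dcn, a fibroblast gene, was at 601 CPM. Its intermediate cell markers were also high, with Dct at 24557 CPM and Kcnj10 at 5339 CPM. The means of Col1a1 in SC-like, RM-like, RC-like and MC-like cells were 22.7, 14.4, 6.69 and 3.90 CPM. In IMC-like cells Col1a2 averaged 12.6 CPM, or 1.04 CPM without its highest cell, and Col3a1, which accompanies type I collagen in soft tissue, had a mean of 6.96 CPM there.

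Col2a1, Col11a1 and Col11a2 make the fibrils of cartilage and of the tectorial membrane. Col2a1 was found at 10 counts in 4 of 16 RC-like cells (25%, interval 7.27% to 52.4%), from 0 to 328.8 CPM with a median of 0 and a mean of 51.8 CPM, and in no cell of the other named Slc26a4+/+ types, whose means were 0.0267 CPM or lower. Col11a2 was shared by several types. Its mean was 152.3 CPM in RC-like cells (9 of 16 cells, 0 to 745 CPM, median 37.3), 148.2 CPM in RM-like cells (7 of 11 cells, 0 to 681 CPM, median 91.3), 52.3 CPM in SC-like cells (8 of 23), and 20.7 and 9.42 CPM in MC-like and IMC-like cells. RC-like and RM-like cells were 0.04 apart on the log2 scale, less than the spread between run dates of either. Col11a1 had 10 counts in 2 RC-like cells (mean 43.5 CPM) and in 3 IMC-like cells (24.1 CPM). Of the 35 RC-like cells of all genotypes, 6 had Col2a1, 7 had Col11a1 and 22 had Col11a2 at 10 counts. None had both Col2a1 and Col11a1, and 4 had Col2a1 with Col11a2. Genotype differed between the first 2 groups. Of the Col11a1 cells, 1 and 4 were Slc26a4-/- cells of run dates 2 and 4, a genotype without Col2a1. Within Slc26a4+/+ cells Col2a1 and Col11a1 had 4 and 2 of 16, too few to show whether the chains avoid each other. Of the chondrocyte markers in RC-like cells, Sox9 was at a mean of 442 CPM and Acan, Hapln1 and Matn3 at 0.0923, 0.357 and 0 CPM. Cnmd, also on that list, is not reported here.

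Among the remaining fibrillar genes, Col27a1 had means of 28.1 CPM in RC-like and 19.1 CPM in MC-like cells, and Col5a1 had 44.7 CPM in SC-like cells. Col24a1 reached 1.95 CPM in IMC-like cells.

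The FACIT genes reached 10 CPM for 5 of 9, and the chains of type IX collagen were the largest group of RC-like cells. Type IX collagen coats type II fibrils, and its molecule is built from the products of Col9a1, Col9a2 and Col9a3. Col9a3 ran from 0 through a median of 213.4 to 2672 CPM in the 16 Slc26a4+/+ RC-like cells, with a mean of 459 CPM and 10 cells at 10 counts (62.5%, interval 35.4% to 84.8%). Col9a1 ran from 0 through 62.99 to 1092 CPM, with a mean of 275.5 CPM and 7 cells (43.8%, interval 19.8% to 70.1%). Col9a2 was lower, at a mean of 53.3 CPM with 6 cells and a median of 0. The spread between run dates was wide, from 114.7 to 759 CPM for Col9a3 and from 93.4 to 638 CPM for Col9a1, the latter from a date with 1 cell.

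The type IX chains did not share 1 distribution over the other cell types. Col9a3 was also at 356 CPM in RM-like cells (6 of 11), at 99.3 CPM over MC-like cells (5 of 14), at 38.8 CPM over SC-like cells (3 of 23) and at 0.149 CPM over IMC-like cells. Col9a1 was at 50.9 CPM in SC-like cells (2 of 23), 32.6 CPM in IMC-like cells (7 of 60), 12.2 CPM in RM-like cells (1 of 11) and 0.188 CPM in MC-like cells. Col9a2 was at 11.02, 2.89, 0.203 and 0 CPM in SC-like, IMC-like, MC-like and RM-like cells. Col9a3 in RC-like and RM-like cells was therefore 0.36 apart on the log2 scale, within the spread of run dates, while Col9a1 was 2.41 above the next type. In MC-like and RM-like cells with Col9a3 at 10 counts (8 and 9 cells of all genotypes), Col9a2 reached 10 counts in none, and Col9a1 in 0 and 1.

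Of all 35 RC-like cells, 6 had Col9a1, Col9a2 and Col9a3 at 10 counts or more, 10 had Col9a1 with Col9a3, 4 had Col9a2 with Col9a3, 2 had Col9a1 with Col9a2, 8 had 1 chain and 5 had none. The r of log2(CPM + 1) between Col9a1 and Col9a3 was 0.30 within these cells and 0.42 over all cells, and between Col9a1 and Col9a2 it was 0.07 within them. Genes most like Col9a1 over all cells were Lum (r 0.52), Irx3 (0.50), Epyc (0.48), Trpm3 (0.46) and Ces1d (0.46), and those most like Col9a3 were Gata2 (0.58), Fxyd6 (0.56), Ces1d (0.55), Grb14 (0.52) and Ptx3 (0.52). Lum and Epyc are small proteoglycans of collagen fibrils, and Epyc marks root cells here.

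**Figure D3:**
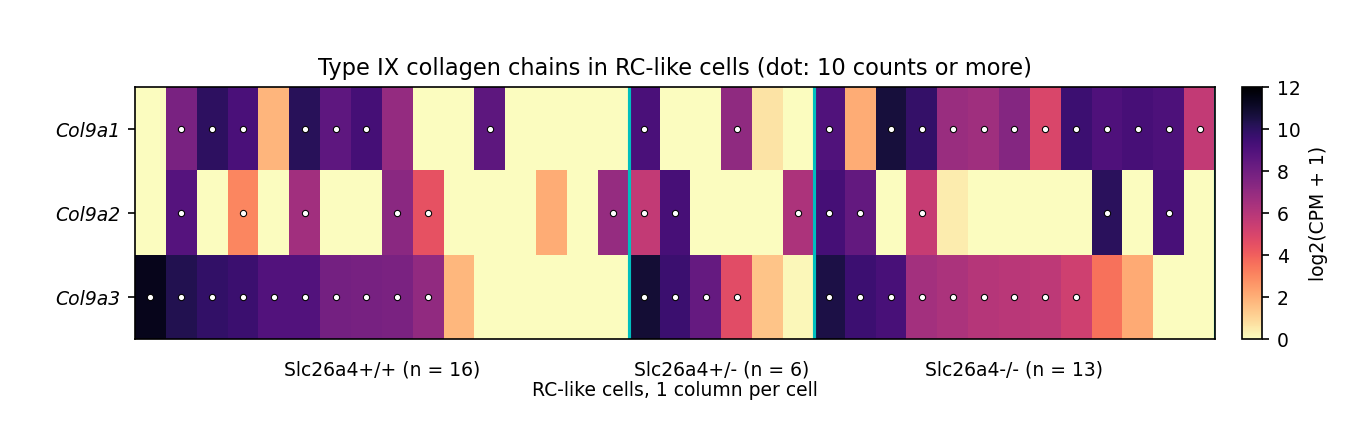
Levels of Col9a1, Col9a2 and Col9a3 in each of the 35 RC-like cells of all genotypes, with 1 column per cell, grouped by genotype and ordered by Col9a3, and the colour giving log2(CPM + 1). White dots mark 10 counts or more, and 6 columns have a dot for all chains and 5 have none.

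Col9a1 in IMC-like cells was confined to few cells. The 7 Slc26a4+/+ cells with 10 counts held from 15.9 to 589 CPM, came from 5 of 20 collections and 3 run dates, and had Col9a2 at 0 and Col9a3 at 0.429 CPM or lower. Epyc was at 1.96 CPM or lower in them and Dct at 4742 CPM or higher. Col20a1, a further FACIT chain, averaged 19.4 CPM over IMC-like cells (8 of 60) and 9.25 CPM over RC-like cells. Col12a1, Col14a1, Col19a1 and Col22a1 stayed at or below 1.96 CPM in every named type.

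The basement membrane genes were Col4a1 to Col4a6. Col4a1 and Col4a2 encode the chains found in nearly all basement membranes, Col4a3, Col4a4 and Col4a5 those of the kidney glomerulus and the cochlea that are lost in Alport syndrome. In these cells Col4a1 and Col4a2 reached at most 5.12 CPM (RC-like) and 6.42 CPM (SC-like), below 10 CPM in every type. Col4a5 was at 64.4 CPM in MC-like cells (7 of 14, 0 to 265.9 CPM, median 2.12), 44.7 CPM in RC-like cells (4 of 16, 0 to 485 CPM), and 11.5, 8.51 and 4.62 CPM in SC-like, IMC-like and RM-like cells. Col4a4 was at 117.2 CPM in RM-like cells (5 of 11, 0 to 363 CPM, median 1.52), 23.6 CPM in IMC-like cells (9 of 60), 14.6 CPM in RC-like cells, 8.07 CPM in SC-like cells and 1.32 CPM in MC-like cells. Col4a3 followed it, at 56.5 CPM in RM-like cells (4 of 11), 19.9 CPM in RC-like cells, and 17.5, 4.94 and 0.330 CPM in SC-like, IMC-like and MC-like cells.

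Col4a3 and Col4a4 are transcribed away from each other on chromosome 1 in GRCm38, with 71 bases between the start of Col4a4 at 82586849 (minus strand) and that of Col4a3 at 82586921 (plus strand). Over all cells their r was 0.32, and of 14111 genes ranked by r, Col4a4 was number 27 for Col4a3 and Col4a3 number 8 for Col4a4. All 4 Slc26a4+/+ RM-like cells with Col4a3 at 10 counts also had Col4a4. Of the IMC-like cells of all genotypes, 4 had Col4a3 and 13 had Col4a4 at 10 counts, and 1 had both. Col4a5, on chromosome X, had r of -0.01 with Col4a3 and 0.02 with Col4a4, and its head-to-head neighbour Col4a6, whose start lies 1308 bases away, reached 5.35 CPM in RC-like cells. Of the 3 chains that make up 1 Alport trimer, Col4a3 and Col4a4 had their highest means in RM-like and Col4a5 in MC-like cells. Neither Col4a3 nor Col4a5 was called, as their log2 differences from RC-like cells, the next type, were 1.46 and 0.52. These means depended on the run date. Col4a5 was at 0, 19.4 and 102.9 CPM in MC-like cells on run dates 1 to 3, and from 2.78 to 485 CPM in RC-like cells. Col4a3 was at 4.58, 120 and 2.58 CPM in RM-like cells on run dates 2 to 4.

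The network genes Col8a1, Col8a2 and Col10a1 all reached 10 CPM. Type VIII collagen, made by Col8a1 and Col8a2, forms the hexagonal lattice below endothelium and the corneal Descemet membrane. Col8a1 in the 11 Slc26a4+/+ RM-like cells ran from 0 through a median of 513 to 3654 CPM with a mean of 1187 CPM, and 9 cells had 10 counts (81.8%, interval 48.2% to 97.7%). The next type was MC-like with 11.7 CPM, of which 1 cell gave 162.3 CPM, a log2 difference of 6.54. IMC-like, SC-like and RC-like cells were at 7.67, 1.38 and 0.980 CPM. In all, 9 of 10 RM-like collections had a mean of 10 CPM or more, and the means of run dates 2, 3 and 4 were 1280, 739 and 1843 CPM. Col8a1 was among the 10 leading genes of the RM-like cluster by fold although no collagen entered the clustering.

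Col8a2 was at 61.6 CPM in RM-like cells (4 of 11), 15.5 CPM in SC-like cells (2 of 23, and 1.37 CPM without the highest cell, a cell with fewer than 10 counts), 1.96 CPM in MC-like cells, 1.02 CPM in RC-like cells and 0.804 CPM in IMC-like cells. All 7 RM-like cells of any genotype with Col8a2 at 10 counts also had Col8a1, which 15 of 17 had. By TPM, Col8a1 at 307 was above Col8a2 at 18.4. The genes most like Col8a1 over all cells were Gm6089 (r 0.77), Slc26a7 (0.76), Gm21698 (0.76), AC244694.1 (0.76) and Crhbp (0.76), of which Slc26a7 and Crhbp are among the markers by which the type was named. Fibrocyte markers summed to a mean of 5376 CPM in RM-like cells, of which Slc26a7, which stands on both lists, held 5237 CPM, and Otos and Coch, which mark fibrocytes, were at 52.2 and 55.7 CPM.

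The multiplexin Col18a1, whose C-terminal fragment is endostatin, was shared by MC-like and RC-like cells. It ran from 0 through a median of 29.2 to 887 CPM in MC-like cells with a mean of 163.2 CPM (8 of 14, 57.1%, interval 28.9% to 82.3%), and from 0 through 0.825 to 877 CPM in RC-like cells with a mean of 156.6 CPM (7 of 16). The 2 means were 0.06 apart on the log2 scale. RM-like, SC-like and IMC-like cells were at 35, 17.6 and 0.409 CPM. Both means depended on the run date: in MC-like cells it was 0, 7.70 and 281.7 CPM on run dates 1, 2 and 3, and in RC-like cells 314.2, 0, 11.99 and 114.3 CPM on run dates 1 to 4. Col15a1, the other multiplexin, had 10 counts in 1 RC-like cell.

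Of the transmembrane genes, Col25a1 was at 101.1 CPM in RM-like cells (3 of 11, 0 to 589 CPM, median 0.774) and at 3.48 CPM in SC-like cells, the next type, with 1.28, 1.19 and 0.832 CPM in RC-like, IMC-like and MC-like cells. Only 3 of 10 RM-like collections had a mean of 10 CPM or more. Col23a1 was at 12.2 CPM in RC-like cells, from 1 cell. Col13a1 was at 8.18 CPM and Col17a1 had no count in any cell. Col26a1, which has no class here, was at 13.6 CPM in RM-like cells.

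The genes of beaded filaments and anchoring fibrils, Col6a1 to Col6a6, Col7a1 and Col28a1, stayed below 10 CPM in every named type of Slc26a4+/+ cells. Col6a3, a chain of the type VI collagen that fibroblasts make in quantity, and Col28a1 had no count in any cell, and the Slc26a4+/+ means of Col6a1 and Col6a2 did not pass 0.323 CPM. Col7a1, the anchoring fibril chain, reached 8.11 CPM in IMC-like cells. With Col17a1, these were the 3 collagen genes without any count, and 39 of the 44 had 10 counts in at least 1 cell.

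Summed over all 44 genes, collagen RNA was at a mean of 2132 CPM in RM-like cells (64.9 to 3678 CPM), 1452 CPM in RC-like cells (15.2 to 3250), 1269.6 CPM in IMC-like cells (1.03 to 23922, and 886 without the highest cell), 409 CPM in MC-like cells (4.11 to 1079) and 329.5 CPM in SC-like cells (4.34 to 1422). The ranges overlapped between all types. By TPM the order of the first 2 was exchanged, with 856 TPM (RC-like), 800.3 (RM-like), 437 (IMC-like), 209.5 (MC-like) and 125.5 (SC-like). The leading gene held 48.2% of the collagen TPM in RC-like cells (Col9a3, 413 TPM), 45.2% in MC-like cells (Col9a3, 94.7 TPM), 38.3% in RM-like cells (Col8a1) and 18.4% in SC-like cells (Col9a1, 23.1 TPM). Of the Col9a3 TPM in MC-like cells, the coding transcript of 2846 bases held 30.3, and retained-intron transcripts held the rest. Col18a1 there was at 46.5 TPM, with 44.9 in 1 coding transcript. Col9a3 thus led MC-like cells only with retained-intron transcripts counted. The same coding transcript held 184.3 of 413 Col9a3 TPM in RC-like cells and 138.4 of 253.4 in RM-like cells. Per cell the median number of collagen genes at 10 counts was 6 for RM-like, 5 for RC-like, 2.5 for MC-like, and 2 for both IMC-like and SC-like cells.

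Full-length libraries allow the transcripts of a gene to be told apart. Col9a1 has a long protein-coding form (3834 bases, start at 24177610 of chromosome 1) and a short one (3059 bases, start at 24195187). The short form, which begins at the second of the Col9a1 windows printed above, held 98.8% of the summed Col9a1 counts in RC-like cells (88.6% of the TPM), 95.6% of the counts in SC-like cells (98.2% of the TPM) and 100% in IMC-like and RM-like cells. The long form had 0 counts in RC-like, IMC-like and RM-like cells and 4.30% of counts in SC-like cells. The short form thus held most of the estimate in each of these types.

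Col18a1 also used starts far apart. The transcript of 5063 bases (start at 77166548, at the window printed above) held 99.1% of Col18a1 counts in MC-like cells, 89.8% in RM-like cells, 79% in RC-like cells and 55% in SC-like cells, and that of 4791 bases (start at 77113705) held 0.529%, 9.86%, 19.6% and 44.9%. Cells of 1 type were pooled for these shares, so a single cell with many counts can set them. Col5a3 in IMC-like cells was 79.1% the protein-coding transcript of 6119 bases by counts, and 20.9% a retained-intron transcript of the same start. A protein-coding transcript of 4037 bases held 65.8% of Col16a1 counts in IMC-like cells but 35.3% of the TPM. The Col9a3 transcript of 2846 bases held 85.2% of Col9a3 counts in RC-like cells but 44.6% of the TPM, since short retained-intron transcripts weigh more per length. Col4a5 in RC-like cells was divided between transcripts of 6536 bases (51.1% of counts) and 3511 bases (46.5%), and a transcript of 2090 bases held 52.9% of Col11a2 counts there. Over all cells the transcripts annotated as protein-coding held 0% of Col26a1 counts, 17.1% of Col27a1 counts and 28.9% of Col13a1 counts, so the levels of these 3 genes come mostly from transcripts annotated as non-coding or retained introns.

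**Figure D4:**
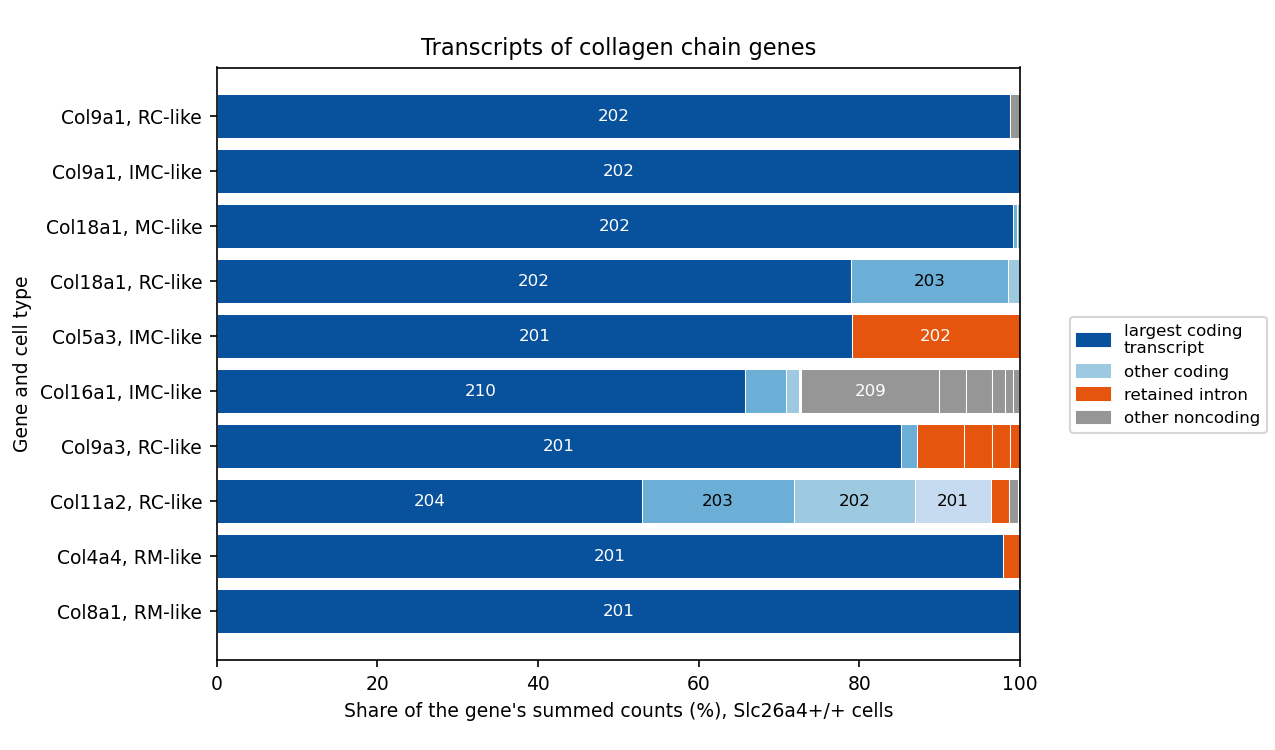
Share of a gene's summed counts held by each of its transcripts, as stacked bars from 0 to 100%, by gene and cell type in Slc26a4+/+ cells, with colours for coding, retained-intron and other transcripts. The Col9a1 bars are nearly all 1 coding transcript (98.8% in RC-like cells), and the leading Col18a1 transcript holds 99.1% in MC-like and 79% in RC-like cells.

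The study compared genotypes to find what the loss of pendrin changes in these cells. Run dates 2 and 4 hold both Slc26a4+/+ and Slc26a4-/- cells, so means were compared within each, and a gene was called where log2 of the ratio (pseudocount 1 CPM) was past 1 in the same direction in both. In IMC-like cells 19 Slc26a4+/+ and 35 Slc26a4-/- cells entered. The 9 collagen genes tested were at 10 CPM or more in either genotype over all run dates, which hold 60 Slc26a4+/+ cells. Of these 3 were lower (Col9a1, Col11a1 and Col4a4), against 6.11% of all genes, and 1 was higher (Col4a5), against 9.88%. The 3 lower genes reached that level in Slc26a4+/+ cells alone, and the higher one in Slc26a4-/- cells alone. Mice cannot be told apart from genotypes in these counts, and the Slc26a4+/- comparison uses the same Slc26a4+/+ cells of run date 4.

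Col5a3, the main collagen of IMC-like cells, was not called. It was at 339 CPM in Slc26a4+/+ and 269.01 CPM in Slc26a4-/- cells on run date 2 (log2 ratio -0.33) and at 510.3 and 360.05 CPM on run date 4 (-0.50). It reached 10 counts in 30 of 35 Slc26a4-/- cells (85.7%) and in 81.7% of the Slc26a4+/+ cells. Col16a1 was at 36.3 and 103.8 CPM on run date 2 (1.49) and at 134.99 and 135.7 CPM on run date 4 (0.01), with 10 counts in 17 of 35 Slc26a4-/- cells.

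Col9a1 was the collagen with the largest difference among those called in IMC-like cells. Its mean was 61.2 CPM in Slc26a4+/+ and 0.240 CPM in Slc26a4-/- cells on run date 2 and 84.6 and 0.390 CPM on run date 4, log2 ratios of -5.65 and -5.94. The summed counts were 1868 (exact Poisson 95% interval 1784 to 1955) against 4 (1.09 to 10.2) on run date 2 and 3215 (3105 to 3328) against 15 (8.40 to 24.7) on run date 4. However, the Slc26a4+/+ counts came from 3 cells, 2 of 12 on run date 2 and 1 of 7 on run date 4. Over all run dates 10 counts were reached by 7 of 60 Slc26a4+/+ cells (11.7%, interval 4.82% to 22.6%), by 1 of 23 Slc26a4+/- cells (4.35%) and by 0 of 35 in Slc26a4-/-, and 0 of 35 allows a share of up to 8.57%, taken as 3 of 35. Col11a1 was at 111.8 and 2.28 CPM on run date 2 and 14.3 and 0.0721 CPM on run date 4, also from 3 Slc26a4+/+ cells. Col4a4 was at 35.3 and 14.8 CPM and at 7.85 and 0.0259 CPM, and Col4a5, the 1 gene higher in Slc26a4-/- cells, at 8.08 and 24.5 CPM and at 0.0295 and 3.42 CPM. The Slc26a4-/- means of Col4a5 came almost wholly from 1 cell on each run date (547.3 and 40.8 CPM). Without the highest cell of each gene none of the 3 lower calls was left, and the smaller log2 ratio of Col4a5 was 0.034.

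**Figure D5:**
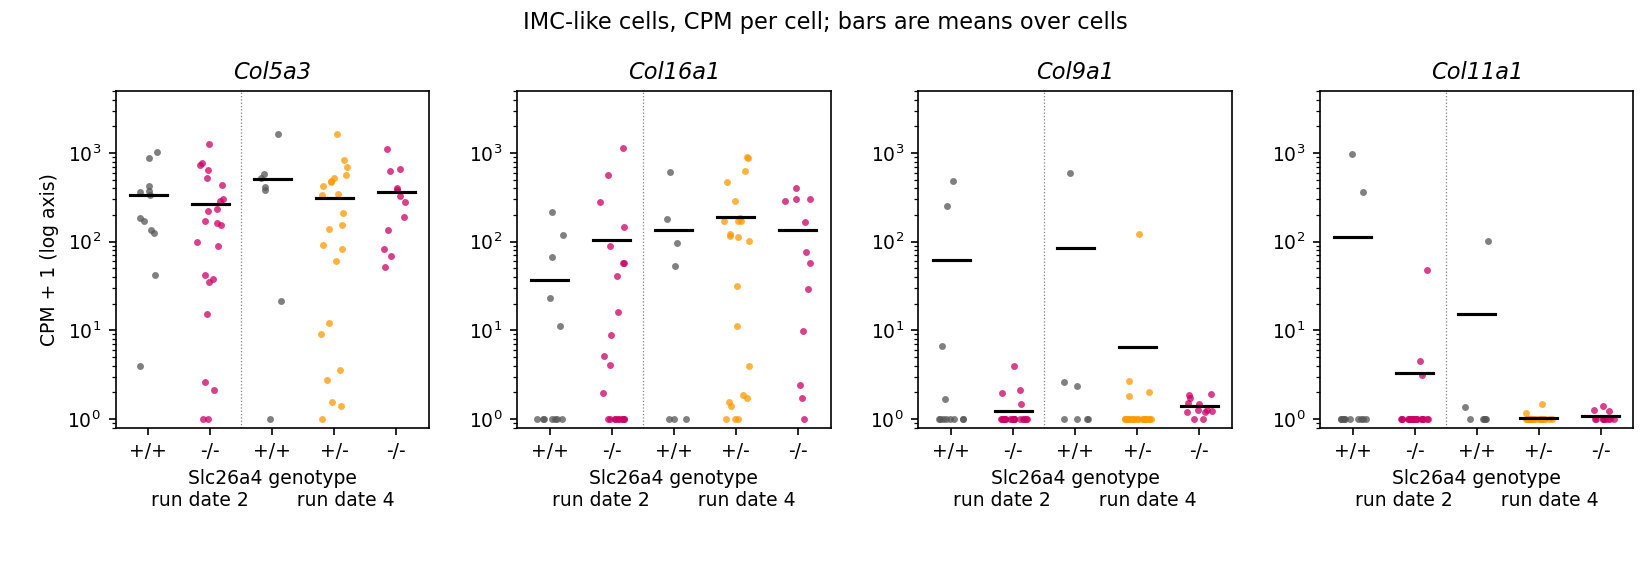
CPM of Col5a3, Col16a1, Col9a1 and Col11a1 in IMC-like cells on run dates 2 and 4 by genotype, with 1 point per cell on a log axis of CPM plus 1 and bars for means over cells. Points of Col5a3 and Col16a1 overlap between genotypes, and the high Col9a1 and Col11a1 means of Slc26a4+/+ cells are each 3 points.

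SC-like and RC-like cells, the types known to make pendrin in wild-type mice, were also pooled and are called pendrin cells here. Slc26a4 RNA was also at a mean of 334 CPM in Slc26a4+/+ RM-like cells, which were not included. In pendrin cells 11 Slc26a4+/+ and 22 Slc26a4-/- cells were compared and 16 collagen genes entered. The 10 CPM level was again taken over all run dates, which hold 39 Slc26a4+/+ cells. Col5a1 and Col10a1 entered through other run dates and could not be called, with log2 ratios of 0 on both dates. Of these 4 were higher in Slc26a4-/- cells (Col4a4, Col11a1, Col20a1 and Col27a1), against 16.7% of all genes, and 0 were lower, against 5.3%. Col27a1, a fibrillar chain, was at 4.34 and 122.7 CPM on run date 2 and 22.5 and 100.5 CPM on run date 4 (log2 ratios 4.54 and 2.11), with 10 counts in 5 of 15 and 7 of 7 Slc26a4-/- cells against 1 of 3 and 1 of 8. Its counts are mostly from transcripts without a coding annotation, as given above. Col11a1 was at 0 and 57.98 CPM and at 12.3 and 73.3 CPM, Col4a4 at 0 and 50.04 CPM and at 0.779 and 29.6 CPM, and Col20a1 at 0 and 3.56 CPM and at 0 and 36.3 CPM. Without the highest cell of each gene the smaller log2 ratio of the run dates was 0 for Col4a4 and 0.56 for Col20a1. Both are under the threshold. For Col27a1 and Col11a1 it rose, to 4.79 and 4.77. This setting also left out the highest Slc26a4+/+ cell, and on run date 4 only 1 of 8 had 10 counts of each gene. The Slc26a4+/+ means of Col27a1 and Col11a1 thus rested on single cells, and the higher ratios are not a sign of stability. Slc26a4+/+ cells numbered 2 SC-like and 1 RC-like on run date 2 against 9 and 6 in Slc26a4-/-, and 3 and 5 on run date 4 against 0 and 7, so on run date 4 the mixture of types differed with the genotype, and its part in the result was not tested.

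RC-like cells alone could be compared on run date 4, with 5 Slc26a4+/+ and 7 Slc26a4-/- cells. Of 14 collagen genes 6 were higher (Col4a1, Col4a4, Col7a1, Col11a1, Col20a1 and Col27a1) and 3 lower (Col2a1, Col9a3 and Col18a1) in Slc26a4-/- cells, against 35.2% and 26.6% of all genes, so a call of this size was common among genes in general. Col9a3 was at 679 CPM in Slc26a4+/+ and 230.6 CPM in Slc26a4-/- cells, and Col9a1 at 358 and 419 CPM. Across run dates Col9a1 had 10 counts in 12 of 13 Slc26a4-/- RC-like cells (92.3%, interval 63.97% to 99.8%), 43.8% of the Slc26a4+/+ and 2 of the 6 Slc26a4+/- cells. Run date differed with genotype in these shares. On run date 2 it was 6 of 6 Slc26a4-/- against 1 of 1 Slc26a4+/+ cells, and on run date 4 6 of 7 against 3 of 5. The other Slc26a4+/+ cells were from run dates 1 (2 of 6) and 3 (1 of 4), which held no Slc26a4-/- RC-like cell. Median depth was 2140200 counts in Slc26a4-/- and 891474 in Slc26a4+/+ cells. When the cells of all run dates were thinned to 100000 counts, 1 Slc26a4+/+ cell was left out. Col9a1 was then detected, here at 1 count or more in place of 10, in 13 of 13 Slc26a4-/-, 8 of 15 Slc26a4+/+ and 2 of 6 Slc26a4+/- cells. Col2a1 had no count in the 13 Slc26a4-/- RC-like cells, which allows a share of up to 23.1% (3 of 13), and 10 counts in 4 of 16 Slc26a4+/+ and 2 of 6 Slc26a4+/- cells.

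Between Slc26a4+/- and Slc26a4+/+ cells of run date 4, IMC-like cells (23 and 7) had 2 of 7 collagen genes higher (Col4a4 and Col4a5), against 24.3% of all genes, and 3 lower (Col9a1, Col11a1 and Col11a2), against 19.8%. In pendrin cells (8 and 8) 5 of 13 were higher (Col4a1, Col4a5, Col8a2, Col16a1 and Col27a1), against 30% of all genes, and 2 lower (Col9a1 and Col11a1), against 26.5%. Col5a3 was at 309 CPM in the 23 Slc26a4+/- IMC-like cells and at 510.3 CPM in the 7 Slc26a4+/+ cells (log2 ratio -0.72), Col16a1 at 189.9 and 134.99 CPM (0.49), and Col9a1 at 5.40 and 84.6 CPM (-3.74), of which 1 cell in each genotype had 10 counts. Col8a1 remained the leading collagen of RM-like cells of the other genotypes, at 3100.2 CPM in 4 Slc26a4+/- cells (972 to 6748 CPM) and 4976 CPM in 2 Slc26a4-/- cells (3615 and 6337 CPM).

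Genes that act on collagens were counted by role. Of 72, 49 reached 10 CPM in a named type, against 24.8% of all genes. Of these, 16 were at least 4-fold above the next type, against 13.3% of all genes at 10 CPM. Of the 15 enzymes and chaperones of hydroxylation and folding, 8 to 12 reached 10 CPM in each type, against 16.3% to 18.8% of all genes. P4hb, the shared subunit of prolyl hydroxylase, was at 904 CPM in RM-like cells, where summed collagen was highest by mean CPM, Ppib, a prolyl isomerase, at 394 CPM and Colgalt2, a collagen galactosyltransferase, at 363 CPM. The catalytic subunits differed between types, with P4ha3 at 227.01 CPM in SC-like cells but no higher than 1.32 CPM elsewhere, and P4ha2 at 33.4 CPM in IMC-like cells but no higher than 1.80 CPM elsewhere. Of the export genes, Sec24d (133.3 CPM), Mia3 (111.3 CPM) and Sec23a (61.4 CPM) were present in RM-like cells and none was called.

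Of 12 genes for removal of propeptides and for crosslinking, 8 reached 10 CPM, against 24.8% of all genes, and 6 were called, against the same 13.3%. Adamts2, which cuts the N-terminal propeptide of fibrillar collagens, was at 413 CPM in RC-like cells but no higher than 37.2 CPM elsewhere, and Lox, which crosslinks fibrils, at 65.9 CPM in RC-like cells but no higher than 4.93 CPM elsewhere. Its relatives were in other types, with Loxl2 (34.9 CPM) and Loxl4 (23.7 CPM) highest in IMC-like cells and Loxl1 (60.9 CPM) in SC-like cells. In RM-like cells the 3 highest of this list were Pcolce, an enhancer of C-propeptide removal (210.1 CPM), Adamts2 (11.1 CPM) and Loxl1 (6.44 CPM).

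Of 9 receptors 1 was called, the adhesion receptor Adgrg1, at 152.8 CPM in RC-like cells but no higher than 4.32 CPM elsewhere. Itgb1 (208.5 CPM), Ddr1 (197.5 CPM) and Lair1 (5.27 CPM) were the highest in RM-like cells. Of 16 other basement membrane genes, Lama4 and Pxdn were called in IMC-like cells (63.5 and 38.6 CPM) and Lamb3 in SC-like cells (125.9 CPM), and Lamb1 (409 CPM) and Agrn (196.1 CPM) were among the highest in RM-like cells. Of 11 fibril partners, Lum, which limits fibril width, was at 1198 CPM in RC-like cells but no higher than 15.4 CPM elsewhere, and Fmod at 15.1 CPM there, while Matn4 (98.1 CPM) and Bgn (16.6 CPM) were called in IMC-like cells. Sparc (638 CPM), Fn1 (9.88 CPM) and Lum (1.18 CPM) were the highest in RM-like cells. Lum and Dcn (68.03 CPM in RC-like cells) are also on the fibroblast list, of which Pdgfra, Dpt and Pi16 were at 0.959, 0 and 0.0468 CPM in RC-like cells. Of 5 genes of breakdown only the membrane protease Mmp14 reached 10 CPM, in every type, at 69.8 to 364 CPM, and Mmp2 and Mmp13 were at 0.138 and 0 CPM in RM-like cells.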

How the data were processed

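Single cells of 3 genotypes were profiled by Smart-Seq2. Per the study's methods and the submitters' notes, reads were assigned to transcripts of mm10 (GRCm38) with kallisto, version not given in the sources used here. The authors deposited 1 file per cell with estimated counts and TPM for 98492 transcripts, and 1 table of estimated counts per gene (47752 genes), which are also called expected counts. The table holds 17 further columns that match no sample and were not used. Smart-Seq2 libraries do not mark strand, so genes that overlap, such as Col4a1 and Col4a2 or Col10a1 and Nt5dc1, are uncertain. Estimated counts of the table were scaled here to CPM per cell. Gene positions and transcript classes came from GENCODE M21 and promoters from RefSeq (GRCm38.p6).

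Cells were clustered with Seurat 5.3.0 in R 4.3.3 (2000 variable genes, of which 1891 were used after collagens and genes named by the study were left out, 10 components, resolution 0.8). A cluster was named where 80% of its cells scored highest for 1 marker list, with 3 or more of that list found in most cells. Cells were picked by hand and no doublet caller was run. A gene was called at 10 CPM with a 4-fold difference between cell types or 2-fold between genotypes (pseudocount 1 CPM). Genes at 50 CPM, called genes and the 3 highest of each partner list in the type with most collagen were named. A few genes that these rules name are not reported here. Members, lists and rules were chosen with earlier results of these data known. No gene-wide test was made, because mice are not named, and intervals are exact at the 95% level. Python 3.11.15, pandas 2.3.3 and scipy 1.17.1 were used, and DESeq2 1.42.0 for size factors alone. The calling was tested on simulated data.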

Additional observations from a re-analysis of the deposited data

How the results depend on the processing

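Cells of 1 genotype are of unknown mice, so no value here carries an error between animals, and with 11 to 60 Slc26a4+/+ cells per type 1 cell can set a mean. No paired analysis was possible because replicate numbers are not shared between genotypes and no mouse is named, and genotypes were compared within run dates instead. The differences of Col5a3, Col16a1, Col8a1, Col9a1 and Col25a1 from the next type stayed above 4-fold in all 16 to 18 settings tried (lowest 4.35, 3.89, 5.68, 2.01 and 3.04 on the log2 scale). Those that kept their sign but fell under 4-fold were Col4a4 (5 of 16 settings, lowest 1.24), Col9a2 (4 of 18, 1.09) and Col2a1 (1 of 18, 1.11). Those that changed sign were Col15a1 (-2.48 with types by marker score, -0.081 without run date 1), Col10a1 (-0.48 without run date 1), Col1a1 (-2.48 without run date 2, -0.060 without the highest cell of each gene) and Col5a1 (-4.01 without run date 3). At a level of 50 CPM in place of 10, 15 genes passed, 7 passed it as sums of TPM and 9 without the highest cell of each gene, a setting chosen after seeing the data. With types by marker score 6 genes in place of 12 were 4-fold above the next type, and with a pseudocount of 10 CPM 9 in place of 16 partner genes.

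Size factors shifted the median gene by -0.32 (IMC-like), -0.60 (SC-like), -0.19 (RC-like), -0.54 (MC-like) and -0.79 (RM-like) on the log2 scale, and gave summed levels of 155.6 (SC-like) and 1839 (RC-like). As TPM these were 125.5 and 856, with 800.3 for RM-like cells. By marker score they were 1109 CPM (RC-like) and 1249 CPM (RM-like), without the highest gene 993 and 945 CPM, and without the highest cell of each gene 129.9 CPM (SC-like) and 878 CPM (RC-like).

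Genotype counts were unstable. For Slc26a4-/- IMC-like cells the genes higher (1) became 0 with size factors, TPM, means of collections, a pseudocount of 10 CPM or pooled run dates and 2 with no minimum level, and the genes lower (3) became 1 with 8 components, 5 with pooled run dates and 0 without the highest cell of each gene. For Slc26a4-/- pendrin cells the higher (4) became 2 at resolution 0.4 and 7 pooled, and the lower (0) 5 pooled. For Slc26a4+/- IMC-like cells the higher (2) became 4 with size factors, 0 with TPM, 1 with collections or a pseudocount of 10 CPM and 6 with no minimum, and the lower (3) became 1 with size factors, 5 with collections or no minimum and 0 without the highest cell of each gene. For Slc26a4+/- pendrin cells the higher (5) became 2 with TPM, 3 with collections, at resolution 0.4 or without the highest cell, and the lower (2) became 1 with size factors, TPM or without the highest cell. The cause was not tested.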
